A study of Homo sapiens with 6 samples.

Results

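Interferon response genes comprise the sensors that detect viral nucleic acid, the receptors and transcription factors that carry the interferon signal, and the antiviral effectors that this signal induces. The list was fixed as 53 gene symbols and was divided by textbook role into 7 sensors and adaptors, 13 receptors and signalling genes and 33 effectors. Of the 53 genes, 51 were measured, out of 18417 genes in all. STAT2 was not analysed here. The probe set of GBP1 also names GBP3 and a pseudogene, so no value is given for it.

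The arrays carried total RNA of A204 cells, a human line established from a tumour of the rhabdoid type, in which the typical lesion is loss of the chromatin remodeller subunit SMARCB1. The cells were grown in DMEM with fetal bovine serum. In the SAHA group, 3 arrays held RNA of cells treated for 12 h with SAHA (vorinostat), an inhibitor of histone deacetylases, at a dose whose unit is incomplete in the labels. In the control group, 3 arrays held RNA of cells given DMSO, as the treatment protocol states, although a second label reads none for them. The labels name no interferon treatment for either group, and both groups are of this 1 line.

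Most of the interferon response genes differed between SAHA and control, but they moved in both directions. Of the 51 measured genes, 21 were higher and 18 lower in SAHA, and 12 did not pass the test (limma, Benjamini-Hochberg adjusted p under 0.05 over all genes). That is 76.5% of the members called, where 60% of all genes were called, 31.1% as higher and 28.9% as lower. The antiviral membrane proteins BST2 (tetherin) and IFITM1 had the largest rises, 7.30-fold and 3.80-fold. TRIM22, an antiviral ubiquitin ligase, had the largest fall, 3.0-fold, followed by the ADP-ribosyltransferase gene PARP14, 2.56-fold. The sensors changed by less than 2-fold throughout.

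As background, cytosolic RNA is detected by the helicases encoded by RIGI and IFIH1, which act through the mitochondrial adaptor MAVS, and cytosolic DNA by CGAS, which acts through STING1. Both routes activate interferon regulatory factors (IRFs) and with them the genes of type I and type III interferons. Secreted interferon binds receptors such as the IFNAR1 and IFNAR2 pair and leads STAT proteins with IRF9 to a DNA element of many effector promoters, the interferon-stimulated response element (ISRE).

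The ISRE was searched in the RefSeq promoter windows of GRCh38.p14, each 250 bases before to 50 after the annotated gene start. It was searched as a pair of GAAA half-sites with any 2 bases between them, on either strand, so that the opposite strand reads TTTC for each half-site. A window was present for 36 of the 51 measured genes, counting the first listed window of each gene. Of the genes that changed at least 2-fold, TRIM22, OASL and IFIT2 had no window and were not searched. The letters were found in 20 of these 36 windows (55.6%), against 433 of the 14239 measured genes that had a window (3.04%). They were found in 19 of 25 effector windows, 1 of 4 sensor windows (IFIH1) and 0 of 7 signalling windows. A match is a description of the letters and does not show that a factor binds there. IFIT3, which lies near IFIT1, and the genes with such letters that changed at least 2-fold hold the same element and yet moved both ways. For these genes, the 170 bases before the start are printed. Each is written 5′ to 3′ along the gene's strand, with the matches that lie wholly before the start in capitals. In BST2 the matches overlap each other.
The genes that rose are BST2, IFITM1, IFI6 and IFIT1.
BST2, chr19:17405631-17405800, - strand: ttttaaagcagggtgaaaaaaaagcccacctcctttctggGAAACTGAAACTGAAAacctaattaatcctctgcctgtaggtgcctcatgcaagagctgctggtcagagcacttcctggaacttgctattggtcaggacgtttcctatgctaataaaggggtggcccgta
IFITM1, chr11:313870-314039, + strand: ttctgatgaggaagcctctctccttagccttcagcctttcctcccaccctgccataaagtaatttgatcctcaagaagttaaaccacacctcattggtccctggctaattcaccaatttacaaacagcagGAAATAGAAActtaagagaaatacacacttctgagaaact
IFI6, chr1:27672193-27672362, - strand: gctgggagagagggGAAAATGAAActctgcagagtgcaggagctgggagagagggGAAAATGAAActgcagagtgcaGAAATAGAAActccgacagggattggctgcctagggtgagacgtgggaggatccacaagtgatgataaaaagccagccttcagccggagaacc
IFIT1, chr10:89392453-89392622, + strand: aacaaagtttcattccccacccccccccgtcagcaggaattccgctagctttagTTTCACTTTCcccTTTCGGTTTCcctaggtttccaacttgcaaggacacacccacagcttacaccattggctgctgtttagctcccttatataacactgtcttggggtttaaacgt
The genes that fell are IFIT3, IFIT5, PLSCR1 and PARP14.
IFIT3, chr10:89327827-89327996, + strand: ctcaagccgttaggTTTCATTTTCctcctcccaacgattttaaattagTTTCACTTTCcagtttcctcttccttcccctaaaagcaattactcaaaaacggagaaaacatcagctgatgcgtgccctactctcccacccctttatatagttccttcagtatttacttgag
IFIT5, chr10:89414398-89414567, + strand: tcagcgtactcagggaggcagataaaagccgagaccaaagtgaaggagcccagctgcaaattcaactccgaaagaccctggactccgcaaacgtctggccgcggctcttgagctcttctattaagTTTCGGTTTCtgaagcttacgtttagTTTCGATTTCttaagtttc
PLSCR1, chr3:146544608-146544777, - strand: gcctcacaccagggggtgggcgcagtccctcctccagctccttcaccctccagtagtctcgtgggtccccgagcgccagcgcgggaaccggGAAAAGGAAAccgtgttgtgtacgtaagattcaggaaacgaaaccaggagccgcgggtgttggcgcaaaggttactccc
PARP14, chr3:122680669-122680838, + strand: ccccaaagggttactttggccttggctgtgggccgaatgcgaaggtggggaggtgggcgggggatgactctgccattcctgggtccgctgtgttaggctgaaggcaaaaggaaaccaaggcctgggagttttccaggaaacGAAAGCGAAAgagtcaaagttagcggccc

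Holding the ISRE letters went with no single direction. Of the 20 genes whose window held them, 10 were higher, 8 lower and 2 not called in SAHA, with a median change of 0.12 on the log2 scale. Of the 16 genes whose window did not, 6 were higher, 7 lower and 3 not called, with a median of 0.00. Of all genes measured, 31.1% were called higher and 28.9% lower. The calls of all genes whose window held these letters were not counted. The GAS element, to which STAT dimers bind after interferon gamma, was searched as TTCNNNGAA, which reads alike on both strands. It was found in 9 of the 36 windows, against 7.07% of all windows. Those 9 genes were also split, 5 higher and 4 lower. In 3 of them, BST2, IFI27 and IFITM1, the GAS letters overlap a match of the ISRE.

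All levels are log2 RMA signals of 1 probe set per gene, and changes are SAHA minus control. Probe sets differ in brightness, so levels are compared between arrays and not between genes. Calls of a rise covered 41.2% of the members against 31.1% of all genes, and calls of a fall 35.3% against 28.9%. Each array was also centred on the median level of 9 housekeeping genes, which on every array was the level of SDHA. SDHA was itself called higher in SAHA (0.1421, limma adjusted p = 0.0221), while the median change of the 9 genes was 0.0126. With this centring, 14 members were higher and 21 lower. Of all 18417 genes, 4118 were then higher and 8424 lower, a share called close to that of the members. The median of all genes moved from -0.0027 to -0.1448. That centring took the share of rises among all calls from 51.9% to 32.8%. A called change of at least 2-fold (1 log2 unit) was found for 11 of 51 members, 21.6%, against 11.3% of all genes. The 3 SAHA values lay all above or all below the 3 control values for 41 members, 80.4%, against 65.4% of all genes.

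The arrays within a group correlated at 0.9975 to 0.9988 across genes (Pearson) and those of different groups at 0.953 to 0.9536. Whether the arrays of 1 group represent separate cultures is not in the labels, so p-values cover the spread between arrays alone, and that spread may be technical. RNA was taken from whole cultures, so fewer expressing cells and less RNA per cell cannot be told apart. SMARCB1 gave 7.74 ± 0.04 in control and 7.22 ± 0.05 in SAHA (SD, n = 3) and was called lower (limma adjusted p = 2.28e-05). No call of signal against background was made. Among 8 genes listed for A204 identity, SMARCB1 included, 2 were higher and 3 lower. That is a share called of 62.5% against 60% of all genes. Of 10 blood and immune cell markers, 7 were not called, CD52 and CLEC4C were higher and FCGR3A was lower. Their summed linear signal ran from 613.7 to 627.9 in control and from 644.8 to 680.5 in SAHA, and its part in the results was not tested. PTPRC, the pan-leukocyte marker, was at 4.05 ± 0.07 in control and 4.08 ± 0.12 in SAHA.

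Changes of at least 2-fold were mostly those of effectors. Among 32 effectors, 12 were higher, 14 lower and 6 not called, and 10 of the calls were at least 2-fold. Among 12 receptors and signalling genes, 6 were higher, 2 lower and 4 not called, with 1 call of at least 2-fold. Among 7 sensors, 3 were higher, 2 lower and 2 not called, and 0 reached 2-fold. The share called was 81.2% of effectors, 66.7% of signalling genes and 71.4% of sensors, against 60% of all genes, so that of the signalling genes was close to the background. The share called at 2-fold or more was 31.2%, 8.3% and 0%, against 11.3% of all genes. The median absolute change was 0.51 for effectors, 0.19 for signalling genes, 0.31 for sensors and 0.24 for all genes. The median signed changes were close to 0, at 0.02, 0.12 and 0.03, and all 3 turned negative with the arrays centred on housekeeping genes. Genes of a role are not replicates, so no test of the difference between roles was made.

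**Figure D1:**
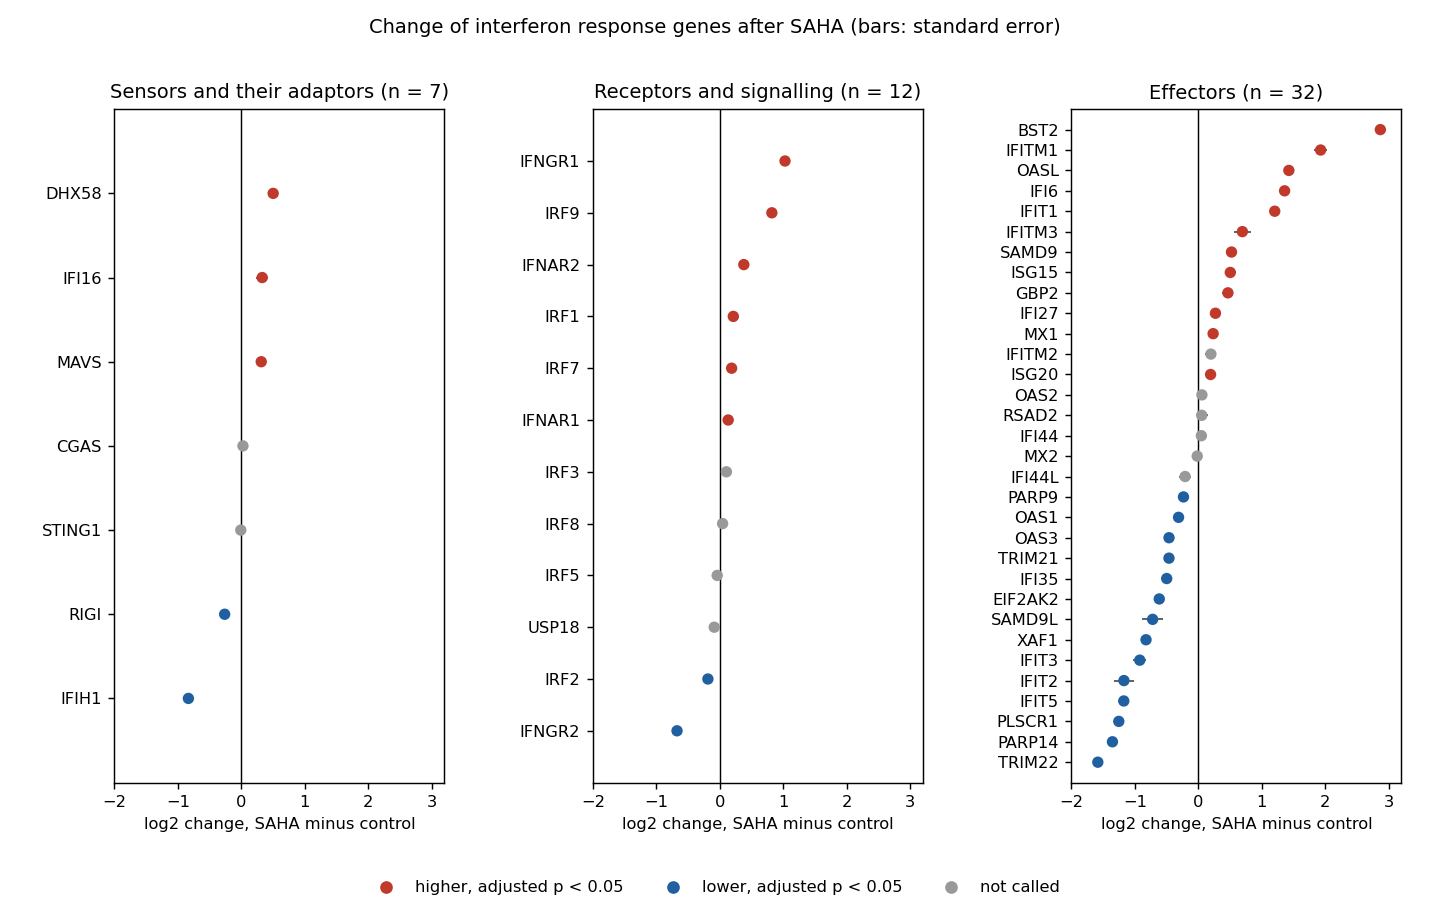
Change of each measured interferon response gene on the log2 scale, SAHA minus control, by role, with the standard error as a bar and the call as colour. Effectors span -1.58 (TRIM22) to 2.87 (BST2), sensors -0.83 (IFIH1) to 0.50 (DHX58).

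The RNA sensors did not move together. IFIH1, the helicase MDA5 that detects long double-stranded RNA, had control values of 8.12, 8.11 and 8.17 and SAHA values of 7.32, 7.35 and 7.24. Every SAHA value was below every control value, a change of -0.83 ± 0.05 (SE, adjusted p = 1.53e-06). RIGI, the helicase for RNA with unprocessed ends, changed the same way by -0.26 (adjusted p = 0.000773). DHX58, which encodes LGP2, a relative of both without their signalling domains, was at 6.80, 6.96 and 6.71 in control and 7.40, 7.29 and 7.28 in SAHA. It rose by 0.50 ± 0.07 (SE, adjusted p = 0.00035), with the groups apart. MAVS, the adaptor that both helicases use, rose by 0.31 (adjusted p = 0.00044).

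Of the DNA sensing genes, 1 passed the test. IFI16, a nuclear DNA-binding protein, was at 10.15, 10.10 and 10.47 in control and 10.52, 10.60 and 10.59 in SAHA. The third control array came close to the SAHA values, and the rise of 0.33 ± 0.09 (SE) had an adjusted p of 0.015 in limma. That call ended without control replicate 1 (adjusted p = 0.0555) and likewise without control replicate 2 (0.0507), in the unmoderated test (0.0807) and with housekeeping centring (0.19, adjusted p = 0.145). CGAS, the DNA-sensing enzyme, was at 4.33 ± 0.10 in control and 4.36 ± 0.04 in SAHA (SD, n = 3, limma adjusted p = 0.735). STING1, its adaptor, was at 6.67 ± 0.08 and 6.66 ± 0.05 (SD, n = 3, limma adjusted p = 0.908). Their groups overlapped.

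The chains of the interferon gamma receptor moved in opposite directions. IFNGR1, the ligand-binding chain of the interferon gamma receptor, was at 8.77, 8.66 and 8.76 in control and 9.70, 9.81 and 9.77 in SAHA. All SAHA values were higher, a 2.04-fold rise (1.03 ± 0.05, SE, adjusted p = 8.2e-07). IFNGR2, the second chain of the same receptor, was at 9.96, 10.01 and 10.06 in control and 9.37, 9.31 and 9.33 in SAHA. It changed the opposite way, by -0.67 ± 0.04 (SE, adjusted p = 4.1e-06). For type I interferon, IFNAR2, the high-affinity chain, rose by 0.38 (adjusted p = 0.000362). IFNAR1, its partner, had a call at 0.13 (adjusted p = 0.0183) that was lost when SAHA replicate 1 or 3 was left out (adjusted p = 0.0621 and 0.0633) and that turned to -0.01 with housekeeping centring.

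Among the transcription factors, IRF9, the DNA-binding partner of the STAT proteins at the ISRE, had the largest change. Its control values were 8.51, 8.69 and 8.44 and its SAHA values 9.29, 9.41 and 9.39. The groups were far apart relative to their spread, and the rise of 0.82 ± 0.07 (SE, 1.77-fold) had an adjusted p of 1.97e-05. IRF1, an activator of many interferon-inducible promoters, rose by 0.21 (adjusted p = 0.00441), and IRF7, which drives interferon alpha genes, by 0.19 (adjusted p = 0.00714). Both of these calls ended with housekeeping centring (0.07 and 0.04). IRF2, known as an antagonist of IRF1, changed by -0.19 (adjusted p = 0.024), a call lost when control replicate 2, control replicate 3 or SAHA replicate 2 was left out (0.0628, 0.0672 and 0.0862), after a further quantile normalization (0.073) and in the unmoderated test (0.0664).

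The other regulators did not pass. IRF3, the factor that sensors activate first, was at 10.11 ± 0.02 in control and 10.22 ± 0.05 in SAHA (SD, n = 3, limma adjusted p = 0.0742), with the groups apart but the call missed. Under 5 of 18 alternatives it was called, at 0.10 to 0.16, and with housekeeping centring its sign turned (-0.04). IRF5 was at 6.47 ± 0.06 and 6.43 ± 0.10, and IRF8, a factor of blood cells, at 5.62 ± 0.12 and 5.66 ± 0.08 (SD, n = 3). USP18, the protease that removes ISG15 and dampens the type I receptor, was at 9.39 ± 0.02 and 9.31 ± 0.06 (SD, n = 3, limma adjusted p = 0.134), with the groups apart. With housekeeping centring IRF5 and USP18 were called, at -0.18 and -0.23, and IRF5 also after a further quantile normalization (-0.16).

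The effector with the largest rise was BST2, which tethers budding virions to the cell surface. Its values were 7.26, 7.26 and 7.52 in control and 10.19, 10.33 and 10.14 in SAHA. No other interferon response gene measured here changed as much, with a change of 2.87 ± 0.08 (SE, 7.30-fold, adjusted p = 5.65e-08). IFI6, a small hydrophobic protein that protects cells from flaviviruses, was at 11.53, 11.49 and 11.52 in control and 12.86, 12.90 and 12.85 in SAHA. Its rise was 2.57-fold (1.36 ± 0.04, SE, adjusted p = 6.54e-08), and the arrays of each group lay within 0.1 of each other. OASL, a relative of the oligoadenylate synthetases without their activity, was at 6.75, 6.66 and 6.56 in control and 8.05, 8.02 and 8.19 in SAHA. It rose 2.69-fold (adjusted p = 5.69e-07).

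The catalytically active oligoadenylate synthetase genes did not rise. These enzymes make the short RNA-like messenger that triggers RNA decay in infected cells. OAS1 changed by -0.31 (adjusted p = 0.0018), and OAS3 by -0.46 (adjusted p = 8.42e-05). OAS2 was at 5.75 ± 0.08 in control and 5.81 ± 0.07 in SAHA (SD, n = 3) and did not pass, its change of 0.06 turning to -0.03 after a further quantile normalization and to -0.09 with housekeeping centring.

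The IFITM genes encode membrane proteins that block the entry of enveloped viruses, and they lie side by side on chromosome 11. IFITM1 was at 6.11, 6.41 and 6.59 in control and 8.31, 8.31 and 8.27 in SAHA. The control arrays were more spread than the SAHA arrays, and the rise was 3.80-fold (1.93 ± 0.11, SE, adjusted p = 1.53e-06). IFITM3 was at 5.50, 5.99 and 6.07 in control and 6.50, 6.62 and 6.52 in SAHA, a rise of 0.69 ± 0.14 (SE, adjusted p = 0.00242). IFITM2 was at 6.53, 6.70 and 6.73 in control and 6.96, 6.68 and 6.90 in SAHA. Its groups overlapped and it did not pass (0.20, adjusted p = 0.0784), although it was called with array weights (0.24, adjusted p = 0.0437) and when SAHA replicate 2 was left out (0.28, adjusted p = 0.0149). These genes are close copies, so their probe sets could share signal.

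The IFIT genes encode proteins that bind foreign RNA, and they form a cluster on chromosome 10 in which neighbours moved apart. IFIT1, which recognises RNA without a mature cap, was at 7.64, 7.70 and 7.77 in control and 8.91, 8.87 and 8.94 in SAHA. It rose 2.30-fold (1.20 ± 0.05, SE, adjusted p = 3.07e-07). IFIT5, the next gene, was at 8.27, 8.37 and 8.63 in control and 7.31, 7.21 and 7.22 in SAHA. It fell 2.26-fold (adjusted p = 8.25e-06), with the groups apart. On the other side of IFIT1, IFIT2 was at 5.81, 6.07 and 6.19 in control and 4.81, 5.19 and 4.56 in SAHA. The SAHA arrays were the more spread, and the change was -1.17 ± 0.16 (SE, adjusted p = 0.000291). IFIT3, a partner of IFIT1 in its complex, changed by -0.92 (adjusted p = 0.000101). IFIT1B, which lies between IFIT3 and IFIT1 and is not among the 53 genes, was at 4.60 in control and 4.53 in SAHA and was not called. IFIT1, IFIT2, IFIT3 and IFIT5 kept their direction and their call under every alternative that tested them.

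**Figure D2:**
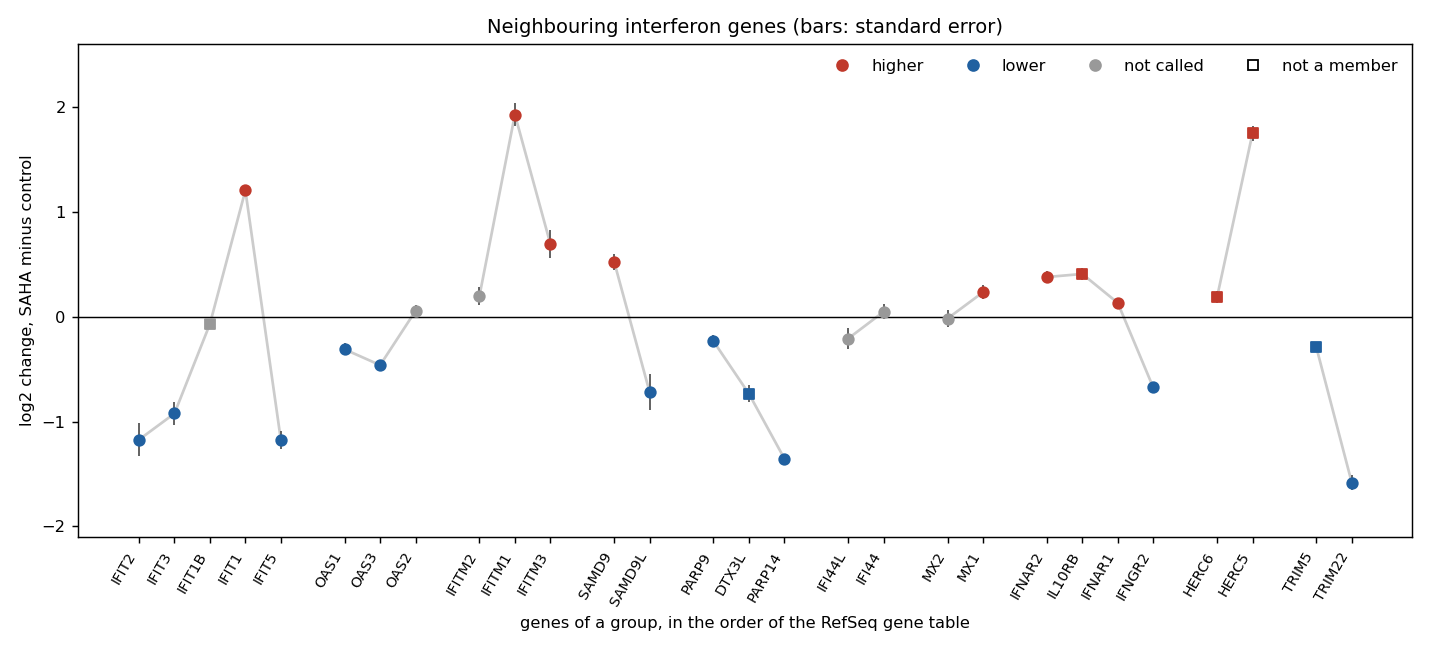
Change on the log2 scale, SAHA minus control, of interferon genes that lie near each other, in the order of the RefSeq gene table, with the standard error as a bar. IFIT1 (1.20) stands between falls of IFIT3 (-0.92) and IFIT5 (-1.17), with IFIT1B (-0.07, not called) between IFIT3 and IFIT1. SAMD9 (0.52) stands beside a fall of SAMD9L (-0.72).

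Other neighbours showed both patterns. SAMD9 and SAMD9L, adjacent genes of chromosome 7 whose products restrain translation of viral RNA, moved oppositely, SAMD9 by 0.52 (adjusted p = 0.000358) and SAMD9L by -0.72 (adjusted p = 0.00662). SAMD9L had 1 high control array (6.10, 6.07 and 6.77, against 5.55, 5.68 and 5.54 in SAHA), and its change was -0.49 without it, still called in limma. In the unmoderated test the call of SAMD9L was lost (adjusted p = 0.0626). On chromosome 3, PARP9, its partner DTX3L, which is not among the 53 genes, and PARP14 were all lower, by -0.23, -0.74 and -1.35. On chromosome 21, IFNAR2, IL10RB, which is not among the 53 genes, and IFNAR1 were higher, while the next receptor gene, IFNGR2, was lower.

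Falls of at least 2-fold were also found for TRIM22, PARP14 and PLSCR1. TRIM22 was at 6.75, 6.85 and 6.91 in control and 5.20, 5.17 and 5.39 in SAHA. Its change of -1.58 ± 0.07 (SE, adjusted p = 4.65e-07) was the largest fall among the members. PARP14, which modifies proteins with ADP-ribose, was at 9.35, 9.25 and 9.30 in control and 7.96, 7.93 and 7.94 in SAHA (-1.35 ± 0.04, SE, adjusted p = 9.58e-08). PLSCR1, a phospholipid scramblase that also limits viral entry, was at 9.23, 9.22 and 9.24 in control and 8.0, 7.99 and 7.93 in SAHA. Its control arrays lay within 0.1 of each other, and it fell 2.38-fold (adjusted p = 1.03e-07).

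**Figure D3:**
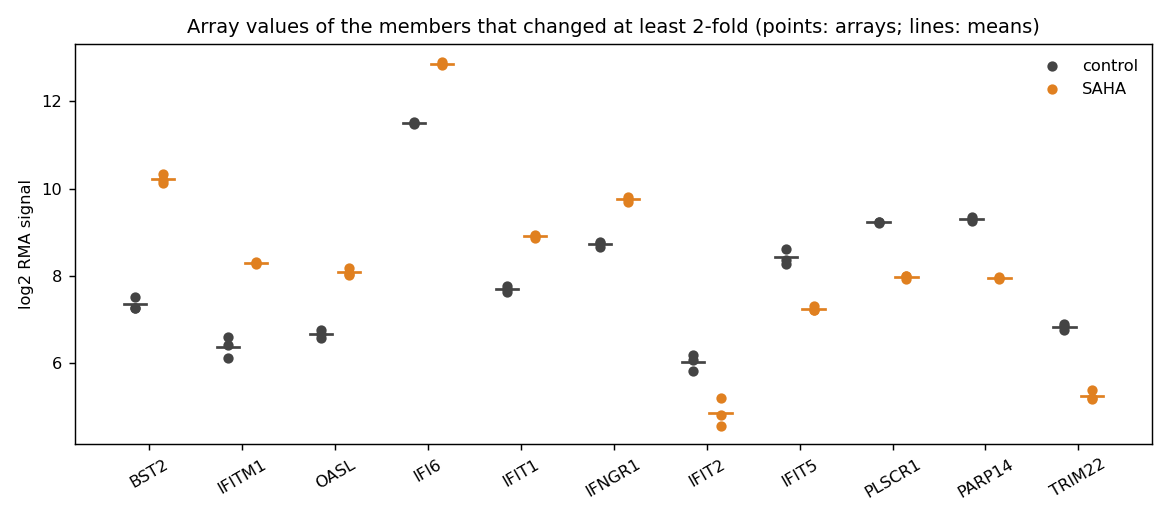
Log2 RMA signal of the 11 members called with a change of at least 2-fold, with a point for each of the 3 control and 3 SAHA arrays and a line at each mean. The groups do not overlap for any of these genes, which were chosen by call and size of change, a choice that favours groups apart. They were also apart for 65.4% of all genes. BST2 has the widest gap, from 7.52 at most in control to 10.14 at least in SAHA.

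Falls of less than 2-fold were also found for 5 further effectors. EIF2AK2, which encodes the RNA-activated kinase PKR, changed by -0.62 (adjusted p = 4.07e-06). XAF1, a pro-apoptotic binding partner of XIAP, changed by -0.82 (adjusted p = 9.16e-06). IFI35 changed by -0.50, TRIM21, a cytosolic antibody receptor, by -0.46, and PARP9 by -0.23 (adjusted p = 0.000163, 8.14e-05 and 0.0091).

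Smaller rises were found for the remaining called effectors. ISG15, the ubiquitin-like modifier, rose by 0.50 (adjusted p = 0.00133), and GBP2, a guanylate-binding GTPase, by 0.47 (adjusted p = 0.0018). The second probe set of GBP2 differed by 0.33. IFI27 rose by 0.27 (adjusted p = 0.00636), MX1, a GTPase that blocks influenza viruses, by 0.23 (adjusted p = 0.0145), and ISG20, an exonuclease, by 0.19 (adjusted p = 0.00555). The calls of IFI27, MX1 and ISG20 ended after a further quantile normalization (0.15, 0.14 and 0.08) and with housekeeping centring (0.13, 0.09 and 0.05), and that of MX1 in the unmoderated test (adjusted p = 0.0583).

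Several effectors that are usually strongly induced by interferon did not pass. MX2 was at 5.22 ± 0.13 in control and 5.20 ± 0.10 in SAHA, and RSAD2, which encodes viperin, at 4.96 ± 0.08 and 5.01 ± 0.20 (SD, n = 3). IFI44 was at 4.27 ± 0.09 and 4.32 ± 0.11, and its neighbour IFI44L at 4.73 ± 0.16 and 4.52 ± 0.15 (SD, n = 3). Their groups overlapped. No background call was made, so a low signal of such genes cannot be read as expression or as its absence, and a fold against a low level may be understated. IFI44L was called without SAHA replicate 2 (-0.29, adjusted p = 0.0318) and with housekeeping centring (-0.35, adjusted p = 0.0116).

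Of 14 measured interferon ligand genes, 2 were higher, 1 was lower and 11 did not pass, a share called of 21.4% against 60% of all genes. IFNB1, which encodes interferon beta, was at 4.20 ± 0.03 in control and 4.25 ± 0.11 in SAHA (SD, n = 3, limma adjusted p = 0.474). IFNL3, a type III interferon with a near-identical copy, rose by 0.30 (adjusted p = 0.0363) with overlapping groups, and IFNL1 by 0.17 (adjusted p = 0.0203). IFNA21, 1 of a family of close copies, changed by -0.15 (adjusted p = 0.0427). The IFNL1 call was lost without control replicate 2 or SAHA replicate 1 (adjusted p = 0.0567 and 0.0771), after a further quantile normalization (0.387), with cyclic loess (0.0876) and with housekeeping centring (0.68). That of IFNL3 was lost without control replicate 1 or 3 or SAHA replicate 1 or 3 (0.107, 0.111, 0.098 and 0.112), with housekeeping centring (0.157) and in the unmoderated test (0.137). That of IFNA21 was lost without control replicate 1 or 2 or SAHA replicate 2 or 3 (0.0765, 0.116, 0.1 and 0.14), after a further quantile normalization (0.0618), with cyclic loess (0.0977), with trend and robust moderation (0.0658) and in the unmoderated test (0.0854). Leaving out 1 array at a time gave 0 to 2 higher and 0 to 2 lower ligand genes.

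Of 22 other sensing and signalling genes, 9 were higher and 8 lower, a share called of 77.3% against 60% of all genes. TRAF3, an adaptor between MAVS and the kinases that activate IRF3, changed by -1.18 (adjusted p = 1.26e-06). TLR3, the endosomal receptor for double-stranded RNA, changed by -0.99 (adjusted p = 4.47e-07) and the kinase gene IKBKE by -0.59 (adjusted p = 0.000205). TANK, a scaffold of those kinases, rose by 0.79, IFNLR1, the type III interferon receptor chain, by 0.78, and SAMHD1, a nucleotide hydrolase that restricts retroviruses, by 0.65 (adjusted p = 6.14e-05, 1.78e-06 and 8.26e-05).

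Of 38 other effectors, 16 were higher (42.1%, against 31.1% of all genes) and 15 lower (39.5%, against 28.9%). IFITM10, a distant relative of IFITM1, rose by 1.86, the nuclear body protein gene SP110 by 1.77, and HERC5, the ligase that attaches ISG15, by 1.75 (adjusted p = 9.56e-07, 9.58e-08 and 2.6e-07). NMI, a partner of IFI35, changed by -1.80, the helicase gene DDX60 by -1.12, and the cytidine deaminase gene APOBEC3C by -0.86 (adjusted p = 2.05e-07, 2.15e-07 and 4.94e-07). The median changes of the ligands, the other signalling genes and the other effectors were 0.02, -0.02 and -0.01.

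**Figure D4:**
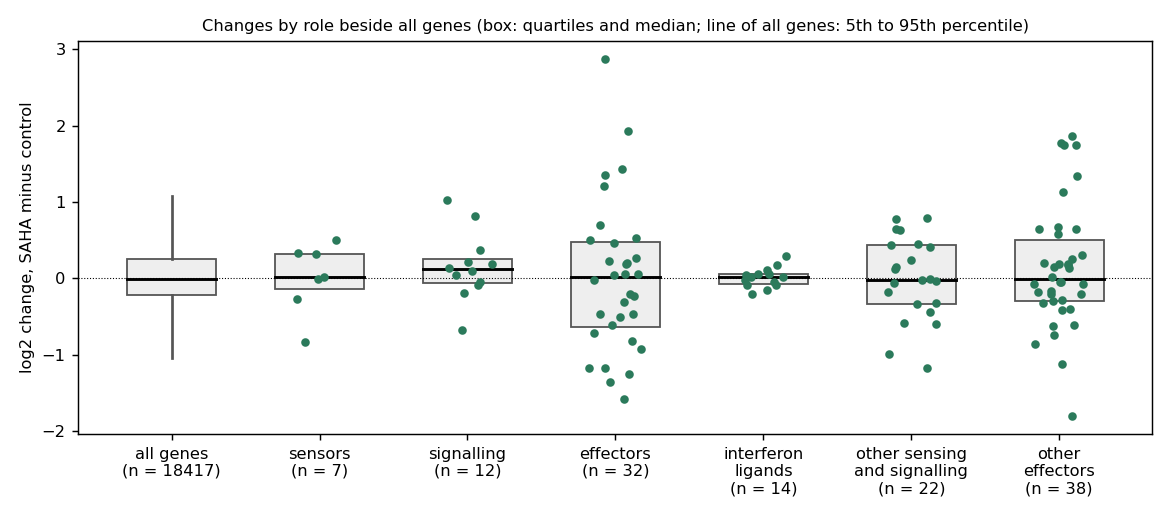
Changes on the log2 scale, SAHA minus control, by role, with a point per gene, a box at the quartiles and a line at the median, beside the box of all 18417 genes with its 5th to 95th percentile. The quartiles of the effectors, -0.64 and 0.48, lie outside those of all genes, -0.22 and 0.26, while those of the ligands, -0.08 and 0.06, lie inside.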

How the data were processed

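Trizol-extracted total RNA was labelled after the Ambion WT Expression Kit and run on Affymetrix whole-transcript arrays, per the labels' protocols. The deposited values are signal intensities summarised with RMA, per the submitters' processing notes. For the program that ran RMA, a version is not given in the sources used here. Values of deposited intensity ran from 6.56 to 20338.2, a linear scale, so log2 was taken. Array medians of the linear values were 142.2 to 145.2 in control and 148.2 to 148.7 in SAHA, so they lay apart by group. RMA equalises array distributions, so a shift of all transcripts together would be hidden.

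Of 33252 probe sets, 19460 named 1 gene in the platform annotation. Symbols were updated through Entrez identifiers with the RefSeq table of GRCh38.p14 (19429 matched), and each of 18417 genes kept its probe set of highest mean. Probe set coordinates are not given, because the array annotation's build is not stated. Groups and replicate numbers came from the titles.

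SAHA was compared with control by limma 3.58.1 (R 4.3.3, lmFit and eBayes, no covariates), two-sided, called at 0.05 after Benjamini-Hochberg adjustment over every gene. Every adjusted p in the text is limma's unless an alternative is named. No dim gene was left out, and the number of arrays limits precision.

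The members, roles and lists were chosen with earlier results of these data known. Array values are given for members called at 2-fold or more, for the 3 largest called changes of a role with fewer, and for the IFITM genes. Of each other list, the called genes with up to 3 largest rises and falls are named. IFNB1, IFIT1B, DTX3L, IL10RB and PTPRC were added for context, as were values of IFIT3 and SAMD9L, after seeing them. The fit was first tested on simulated data. Alternatives were scaling, filters on dim genes, probe set choice, moderation, array weights, the replicate block and leaving out each array.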

Additional observations from a re-analysis of the deposited data

How the results depend on the processing

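Of the 39 calls among members, 30 kept their direction and their call under every one of up to 18 alternatives that tested them, 14 of them rises and 16 falls. The counts of members stayed within 1.5 times of 21 and 18, at 20 to 22 and 17 to 18 when single arrays were left out, except when dim genes below the median level were dropped, where 12 rises and 10 falls remained because 28 members were not tested.

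Medians near 0 changed sign easily. With housekeeping centring, the median was -0.0942 for members, -0.1167 for sensors, -0.0243 for signalling genes and -0.1269 for effectors. The effector median was -0.0355 after a further quantile normalization, -0.1258 with genes under a mean level of 5 left out and -0.4618 with genes under the median left out, where members were at 0.1038 and sensors at 0.3136. The sensor median was 0.1525 with genes under 5 left out, and the signalling median 0.1724 after quantile normalization and 0.1488 after cyclic loess. When single arrays were left out, the medians ran from 0.0133 to 0.0748 for members, 0.0109 to 0.0768 for sensors, 0.1065 to 0.134 for signalling genes and -0.0573 to 0.0282 for effectors.

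Over all genes, 8424 were lower with housekeeping centring, and 3660 were higher with genes under the median left out, where the other effectors had 9 higher and 9 lower. Higher and lower ligand genes numbered 1 and 0 after quantile normalization, cyclic loess, the unmoderated test, the replicate block and the median filter, and 0 and 5 with housekeeping centring. No ligand was lower (0) with genes under 5 left out or with trend and robust moderation. Leaving out single arrays gave 0 to 2 in each direction.

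Among genes that were not called, signs turned with housekeeping centring for CGAS (-0.1167), IRF3 (-0.0382), IRF8 (-0.0982), IFI44 (-0.0942), OAS2 (-0.0856) and RSAD2 (-0.0888), and that of the called IFNAR1 turned too (-0.0103). After quantile normalization they turned for IRF8 (-0.0288), USP18 (0.0047) and OAS2 (-0.0262). When single arrays were left out, the range crossed 0 for CGAS (-0.0168 to 0.0768), STING1 (-0.0538 to 0.0148), IRF5 (-0.077 to 0.0133), IRF8 (-0.0068 to 0.1106), MX2 (-0.0943 to 0.037), IFI44 (-0.0138 to 0.0888) and RSAD2 (-0.0584 to 0.1349). Housekeeping centring lowered the change of every gene alike, by the rise of SDHA (0.1421), whose level was the housekeeping median on every array. The cause of the other changes of sign was not tested.

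Replicate numbers shared by both groups are not stated to pair the arrays. Deviations of same-numbered arrays correlated at -0.03, -0.167 and -0.004, which cannot show whether the arrays were paired by culture. With the replicate number as a block, 5520 genes were higher and 5081 lower, and among members 20 and 18, the call lost being that of IFNAR1. Without a background call, changes of dim genes are limited in precision.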
